A study of Mus musculus and Homo sapiens with 12 samples.

Results

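Solute carriers are membrane proteins that move small molecules across the plasma membrane or into organelles, and their genes carry symbols that begin with SLC in human and Slc in mouse. The genes described here are those with such a symbol and a mean of at least 1 FPKM (fragments scaled to gene length and library size) in their table. The cells were human and mouse T-ALL cells, a leukaemia of immature T lymphocytes. The amino acid and monocarboxylate carriers SLC7A5, SLC3A2, SLC1A5, SLC38A2, SLC38A1, SLC7A1, SLC7A6, SLC1A4 and SLC16A1 were left out. Of 11513 human rows 186 had an SLC symbol, 9 were left out, 102 were under 1 FPKM, and 75 remained. Of 10430 mouse rows 174 had such a symbol, 9 were left out, 10 were under 1 FPKM, and 155 remained. Together these were 230 of 21943 rows, with 69 symbols shared by both species. Members of the SLC25 family, 21 in human and 35 in mouse, are given apart from the other 54 and 120. In each species 4 of the others are named after a carrier without being one, such as SLC9A3R1, the scaffold protein NHERF1. Nearest to the limit, SLC25A4 (a mean of 1.01 FPKM) and SLC30A7 (1.07) were inside and SLC38A5 (0.983) and SLC15A4 (0.981) outside in human, and Slc46a1 (1.03) was inside and Slc29a4 (0.925) outside in mouse.

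SLC25 proteins sit mostly in the inner mitochondrial membrane, where they exchange nucleotides, phosphate, carboxylates, amino acids and cofactors between the matrix and the cytosol. ADP/ATP carriers bring ADP in and let newly made ATP out, and the phosphate carrier supplies the phosphate for it. Carriers of the cell surface and of other organelles bring in glucose, amino acids, nucleosides, metals and vitamins, or load the Golgi with nucleotide sugars for glycosylation. Leukaemic T cells depend on such uptake for growth.

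The human samples were KOPTK1, 1 established T-ALL cell line, kept for 72 h with Compound E (gSI), an inhibitor of gamma-secretase, the protease that frees active NOTCH1, or with its solvent control DMSO, with 2 libraries each. The mouse samples were leukaemic cells sorted by GFP from the spleens of C57BL/6 mice with secondary transplants of NOTCH-delta E tumours, in which an activated form of NOTCH drives the leukaemia. These mice spent 3 weeks on diets with 0, 0.4, 0.8 or 8 g/kg valine, the last being the control, and each diet had 1 library named TALL2 and 1 named TALL3. The treatment protocol describes the 2 intermediate diets as valine-free food with valine in the drinking water, so the doses are used here as names of diets. The labels do not say what TALL2 and TALL3 stand for, nor which promoter drives the NOTCH transgene, nor whether the 2 libraries of a group are from 2 cultures or 2 mice. The p-values therefore reflect library-to-library spread that could be technical.

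Reads recovered from the FPKM steps ran from 22940026 to 42245864 per human library and from 14222895 to 37687253 per mouse library. The NOTCH target HES1 was at 0.0253 and 0.0431 FPKM with gSI, against 6.72 and 6.18 FPKM with DMSO. The summed level of the 12 listed of 13 T-lineage markers was 207 and 220 FPKM with gSI, against 385 and 370 FPKM with DMSO, and that of 13 such markers was 4149 to 5215 FPKM over the mouse libraries. What part the lower marker sum with gSI has in the carrier results was not tested. In mouse the 0.4 g/kg libraries stood apart: the fit of TALL3 against TALL2 called 1 of 9943 genes with them and 294 without them. Erythroid markers (8 of 11 listed) summed to 8.68 and 8.42 FPKM on 0 g/kg, 57.7 and 44.2 on 0.4 g/kg, 40.6 and 32.1 on 0.8 g/kg, and 98.4 and 271 FPKM on 8 g/kg, each in TALL2 and TALL3. Neutrophil markers (10 of 10) summed to 546 and 306 FPKM on 0 g/kg, 12.1 and 72.4 on 0.4 g/kg, 13.5 and 6.66 on 0.8 g/kg, and 0.737 and 8.26 FPKM on 8 g/kg. At 0 in single libraries were 5 of the erythroid markers (TALL2 on 0 g/kg) and 5 and 1 of the neutrophil markers (TALL2 and TALL3 on 8 g/kg). The part of these other cells in the diet results below was not tested. B-cell and platelet marker genes were not among the listed genes.

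The gene length behind the human FPKM was 29957 bp at the median and that behind the mouse FPKM 3180 bp. Human levels are therefore compared only within a gene. Mouse levels, per a length that was 0.748 of the annotated exon length at the median, are set beside each other. The limit of 1 FPKM asks for more reads of a longer gene. It was thus stricter in human, where 102 rows with an SLC symbol fell under it, than in mouse, where 10 did. Those 102 rows are not shown to be unexpressed, and the 69 shared symbols depend on this limit. In mouse T-ALL the nucleoside carrier Slc29a1 had the highest mean level of all 155 members (174 FPKM), followed by the mitochondrial phosphate carrier Slc25a3 (131 FPKM) and the ADP/ATP carriers Slc25a5 (123 FPKM) and Slc25a4 (112 FPKM). The ranges of the last pair over the 8 libraries, 111 to 143 FPKM for Slc25a5 and 99.3 to 130 FPKM for Slc25a4, overlapped. The choline carrier-like gene Slc44a2 (84.8 FPKM), the glutathione carrier Slc25a39 (67.2 FPKM) and the oxoglutarate/malate carrier Slc25a11 (52.4 FPKM) came next among the carriers. At the low end of SLC25 stood Slc25a35 at 1.37 FPKM. The ratio of the highest to the lowest library had a median of 1.46 over the SLC25 genes, 1.64 over the other members and 1.45 over all 9943 tested genes. It was above 3 in 1 of 35 SLC25 genes (Slc25a45), in 18 of 120 others and in 1223 of all genes.

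The first comparison asked which carrier mRNAs changed in KOPTK1 cells when gamma-secretase was blocked. With gSI 8 of 13 genes of the SLC35 family (nucleotide sugar carriers and their relatives) rose and none of them fell. In sugar carrier families 4 of 5 genes fell, and 15 of 21 SLC25 genes were not called. Of 75 members 38 passed limma's test at an adjusted p of 0.05 (50.7%), against 53.1% of all 6679 tested genes. Rises were 27 (36% of members, against 22.8% of all genes) and falls 11 (14.7%, against 30.3%). The median log2 fold change, computed from log2(FPKM + 1) and so too small for genes of low level, was 0.01 for SLC25, 0.13 for the other members and -0.03 for all genes. Without gSI replicate 2, the deepest library, 31 members were called (41.3%, against 33.3% of all genes; 21 rises and 10 falls), and without gSI replicate 1 30 were (40%, against 36.3%), so which share was higher depended on the libraries. The SLC25 median lay between -0.05 (without gSI replicate 2) and 0.03 (without DMSO replicate 1) when 1 library was left out.

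Among the 21 SLC25 genes 4 rose, 2 fell and 15 did not pass. SLC25A44, the carrier that takes branched-chain amino acids such as valine into mitochondria, was at 4.58 and 5.04 FPKM with gSI, against 3.00 and 2.94 FPKM with DMSO. Both gSI libraries lay above both DMSO libraries, and the log2 fold change was 0.55 (SE 0.0753, limma adjusted p = 8.8e-07). SLC25A39, a mitochondrial glutathione carrier, was at 6.88 and 7.09 FPKM with gSI, against 5.13 and 5.15 FPKM with DMSO (0.38, SE 0.0757, limma adjusted p = 1.4e-04). Its relative SLC25A40 went the other way: it was at 2.74 and 2.30 FPKM with gSI, against 3.87 and 3.55 FPKM with DMSO (-0.42, SE 0.0774, limma adjusted p = 4.85e-05). In all 3 genes the groups did not overlap.

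The ADP/ATP carriers did not move together. SLC25A5 fell to 87.0 and 86.1 FPKM with gSI, against 134 and 134 FPKM with DMSO, a log2 fold change of -0.62 (SE 0.0842, limma adjusted p = 7.2e-07). SLC25A4 rose to 1.19 and 1.31 FPKM with gSI, against 0.677 and 0.847 FPKM with DMSO (0.35, SE 0.0571, limma adjusted p = 9.2e-06). Both DMSO libraries were under the limit of 1 FPKM, so SLC25A4 was a member only through its gSI libraries, which favours a rise. SLC25A6 was at 7.43 and 7.66 FPKM with gSI, against 7.69 and 8.78 FPKM with DMSO, and was not called (limma adjusted p = 0.25). The 3 genes are close copies and SLC25A5 has many processed pseudogenes, so how reads were shared among them is uncertain. The iron carrier SLC25A28 (mitoferrin-2) was at 1.66 and 1.96 FPKM with gSI, against 1.56 and 1.38 FPKM with DMSO. Its rise (0.18, SE 0.0673, limma adjusted p = 0.023) was not called without gSI replicate 2 (adjusted p = 0.43), without DMSO replicate 2 (0.16) or with no filter on the genes tested (0.080).

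The 15 SLC25 genes that did not pass ranged from -0.15 for SLC25A46, a protein of the outer membrane, to 0.14 for SLC25A45. Both carboxylate carriers, SLC25A11 and SLC25A1 (the citrate carrier), were lower in both gSI libraries, at -0.14 and -0.10, without passing. The phosphate carrier SLC25A3 was at 33.2 and 33.1 FPKM with gSI, against 36.8 and 34.9 FPKM with DMSO (-0.11, SE 0.0822, limma adjusted p = 0.27). Mitochondrial transport genes without an SLC symbol, such as porins and the pyruvate carrier, were 12 among the tested genes. Of these the ABC transporter ABCB8 rose (0.55), and the porin VDAC1 (-0.38), the serine carrier SFXN1 (-0.36) and the pyruvate carrier subunit MPC2 (-0.28) fell. The rest of the 12 were not called, whereas 53.1% of all tested genes were. ABCB8 had a DMSO mean of 0.738 FPKM, under the limit of 1 FPKM. It was therefore in the test only through its gSI libraries, which favours a rise.

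**Figure D1:**
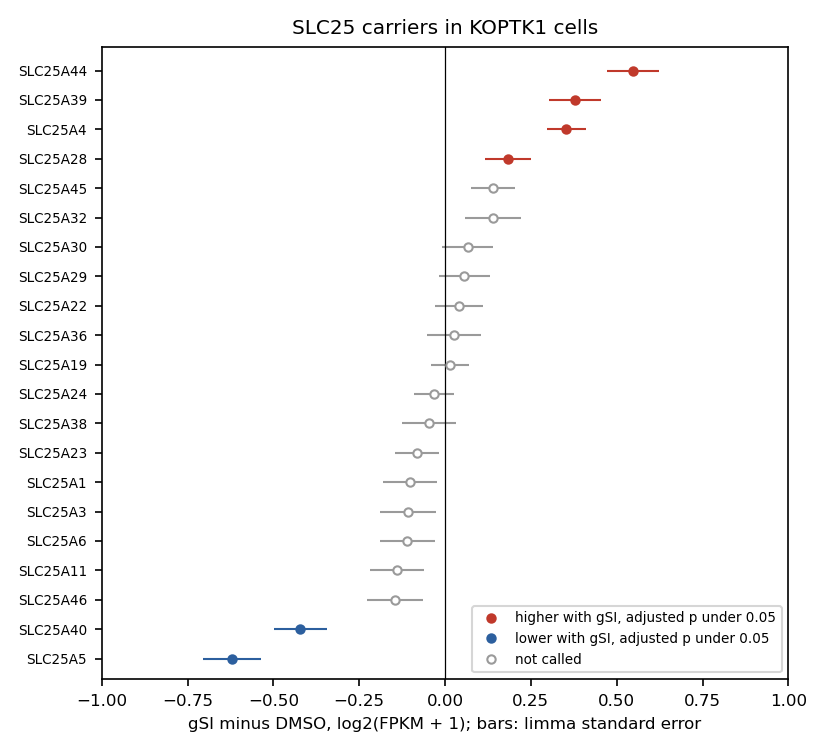
Log2 fold change of the 21 SLC25 genes in KOPTK1, gSI minus DMSO on log2(FPKM + 1), with limma standard errors (n = 2 libraries each). Filled points passed an adjusted p of 0.05: 4 genes, led by SLC25A44 at 0.55, lie to the right of 0, and SLC25A40 and SLC25A5 lie to the left at -0.42 and -0.62.

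Among the 54 other members 23 rose, 9 fell and 22 did not pass. Genes of the SLC35 family, which holds the nucleotide sugar carriers of the Golgi and endoplasmic reticulum and unassigned relatives, rose in 8 of 13 cases and fell in none, with a median of 0.21. The UDP-galactose carrier SLC35A2 was at 2.14 and 2.16 FPKM with gSI, against 1.42 and 1.40 FPKM with DMSO (0.39, SE 0.0640, limma adjusted p = 1.3e-05). SLC35B2, which carries the sulfate donor PAPS into the Golgi, was at 6.72 and 6.68 FPKM with gSI, against 5.0 and 5.57 FPKM with DMSO. It rose by 0.29, and the other rises were those of SLC35F6 (0.41), SLC35E2B (0.36), SLC35C2 (0.29), SLC35B1 (0.26), SLC35C1 (0.21) and SLC35D1 (0.19). Reads of SLC35E2B may be shared with its near-identical neighbour SLC35E2. SLC33A1, which brings acetyl-CoA into the endoplasmic reticulum, rose to 2.72 and 2.60 FPKM with gSI, against 1.61 and 1.46 FPKM with DMSO (0.53, SE 0.0682, limma adjusted p = 3.1e-07), and the sulfate carrier SLC26A2 rose by 0.30.

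Metal carriers rose in 5 of 14 cases and fell in none. Rises were 36% of all 75 members and 22.8% of all genes, so metal carriers were near the share of all members. The iron exporter SLC40A1 (ferroportin) was at 3.36 and 3.30 FPKM with gSI, against 2.36 and 2.07 FPKM with DMSO (0.43, SE 0.0733, limma adjusted p = 1.8e-05). SLC39A7, which releases zinc from the endoplasmic reticulum, was at 24.6 and 27.3 FPKM with gSI, against 20.1 and 18.6 FPKM with DMSO (0.41, SE 0.0838, limma adjusted p = 1.9e-04). In both genes all gSI libraries lay above all DMSO libraries. The zinc carriers SLC39A13 (0.29) and SLC30A7 (0.15) and the magnesium carrier SLC41A1 (0.22) rose too. SLC30A7 had a DMSO mean of 0.963 FPKM, under the limit of 1 FPKM, so it was a member only through its gSI libraries. The 9 metal carriers that did not pass lay between -0.10 for SLC39A6 and 0.15 for SLC39A3.

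Genes of sugar carrier families moved the other way, with 4 of 5 lower. SLC2A3 (GLUT3), a high-affinity glucose carrier, was at 1.98 and 1.99 FPKM with gSI, against 2.96 and 3.23 FPKM with DMSO (-0.46, SE 0.0712, limma adjusted p = 5.3e-06). SLC2A1 (GLUT1), the widely expressed glucose carrier, was at 1.01 and 1.06 FPKM with gSI, against 1.39 and 1.46 FPKM with DMSO (-0.26, SE 0.0572, limma adjusted p = 4.7e-04). SLC50A1, a sugar carrier of the Golgi, fell to 9.17 and 9.87 FPKM with gSI, against 15.8 and 15.3 FPKM with DMSO (-0.66, SE 0.0795, limma adjusted p = 1.2e-07). The glucose-6-phosphate carrier SLC37A4 fell by 0.37 on the log2 scale. The group's 1 rise was that of SLC5A6 (0.28), a vitamin carrier that shares a family with sodium-coupled sugar carriers.

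Of the remaining carriers, SLC29A1 (ENT1), which lets nucleosides into the cell, fell to 2.90 and 3.04 FPKM with gSI, against 4.80 and 5.12 FPKM with DMSO (-0.59, SE 0.0748, limma adjusted p = 2.7e-07). The bicarbonate carrier SLC4A7 (-0.40) and the choline carrier-like SLC44A2 (-0.39) fell as well. The riboflavin carrier SLC52A2 rose to 3.80 and 3.70 FPKM with gSI, against 1.94 and 1.94 FPKM with DMSO (0.69, SE 0.0712, limma adjusted p = 6.7e-09). SLC10A3, a relative of bile acid carriers, rose by 0.71, at 4.71 and 4.47 FPKM with gSI, against 2.48 and 2.35 FPKM with DMSO. SLC7A11, the cystine/glutamate exchanger that feeds glutathione synthesis, was at 2.55 and 2.39 FPKM with gSI, against 1.38 and 1.26 FPKM with DMSO (0.58, SE 0.0662, limma adjusted p = 4.1e-08). In each of these genes the gSI and DMSO libraries did not overlap. The amino acid carrier SLC38A10 rose by 0.56, at 1.74 and 1.81 FPKM with gSI, against 0.884 and 0.887 FPKM with DMSO. Its DMSO libraries were under the limit of 1 FPKM, so it too was a member only through its gSI libraries. The arginine and lysine carrier SLC7A3, at 1.83 and 2.02 FPKM with gSI, against 1.81 and 1.89 FPKM with DMSO, was not called (limma adjusted p = 0.69).

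**Figure D2:**
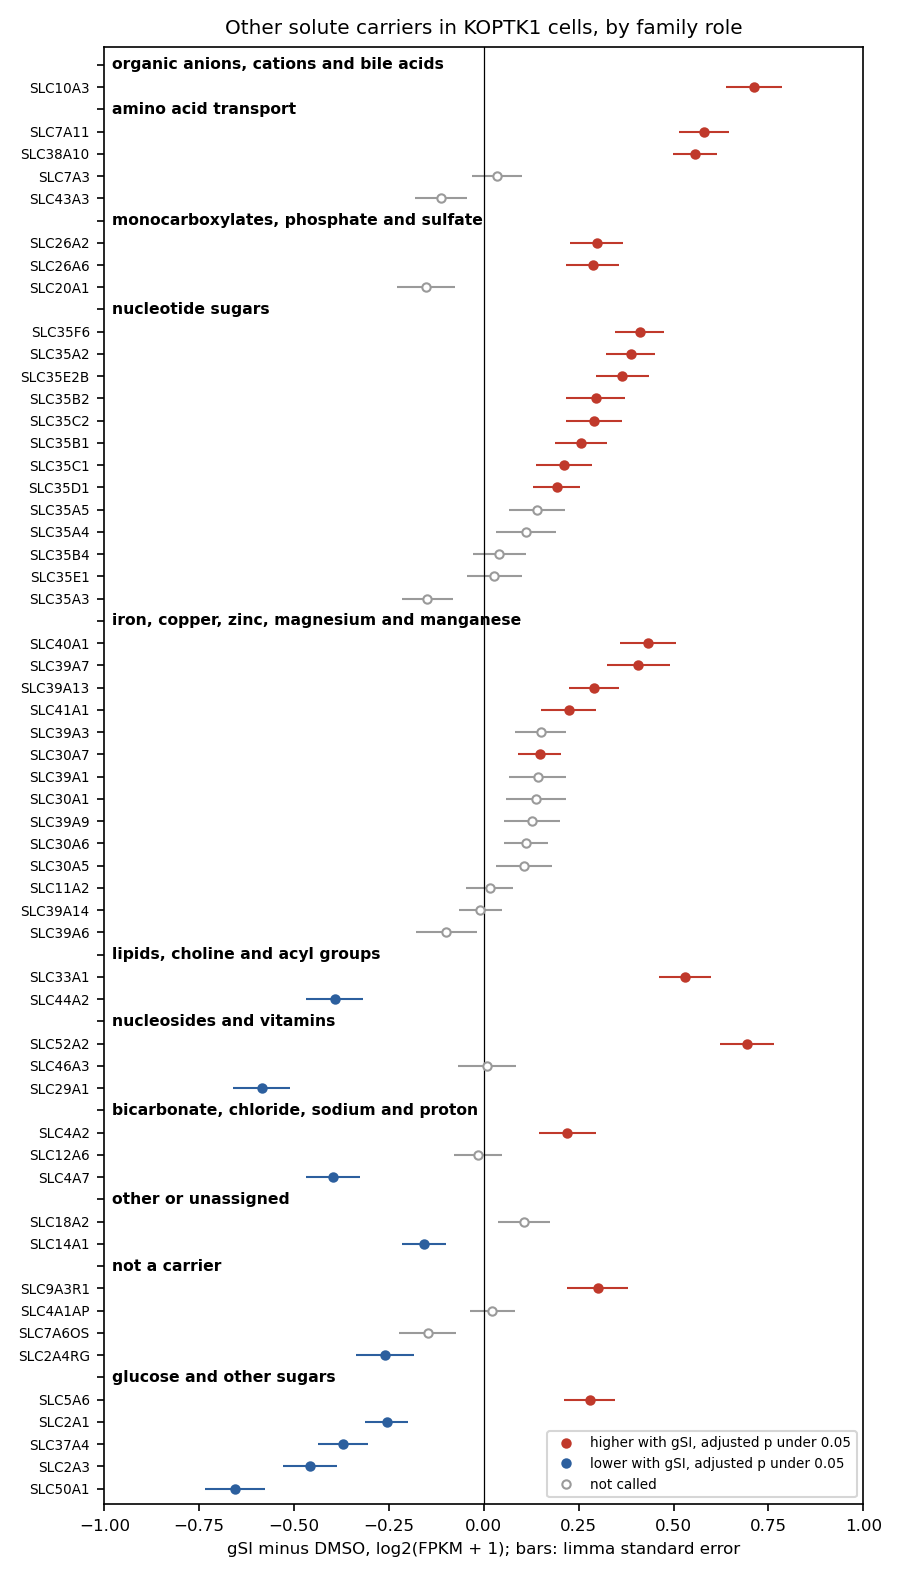
Log2 fold change of the 54 other members in KOPTK1, gSI minus DMSO on log2(FPKM + 1), with limma standard errors (n = 2 libraries each), grouped by family role. Filled points passed an adjusted p of 0.05: 8 of 13 SLC35 genes (headed nucleotide sugars) lie to the right of 0, and 4 of 5 genes of sugar carrier families lie to the left, down to -0.66 for SLC50A1.

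The second set of comparisons asked which carriers moved in mouse T-ALL when dietary valine was cut. Without valine the arginine and lysine carrier Slc7a3 and the glycine carrier Slc6a9 had the largest positive differences among members, and the red-cell anion exchanger Slc4a1 (band 3) the largest negative one. Slc7a3 reached the limit of 1 FPKM only through restricted diets, so its place among members rests in part on that limit. No member passed the test. Limma called 0 of 155 members for each restricted diet against 8 g/kg, as it called 0% of all 9943 genes, and the smallest member adjusted p was 0.23 on 0 g/kg, 0.39 on 0.4 g/kg and 0.998 on 0.8 g/kg. At an unadjusted p under 0.05 were 19 members on 0 g/kg (12.3%, against 10.3% of all genes), 13 on 0.4 g/kg (8.39%, against 10.7%) and 9 on 0.8 g/kg (5.81%, against 4.35%). Limma-voom on the recovered reads also called 0 members, with 20, 14 and 10 at an unadjusted p under 0.05. A fit that leaves 1 library in a group has less to estimate the spread from. A lower count there need not come from the library left out. The unadjusted counts changed, up or down, when single libraries were left out. Without the TALL2 control they were 9 (5.81%, against 4.79% of all genes), 6 (3.87%, against 4.86%) and 2 (1.29%, against 1.39%) on 0, 0.4 and 0.8 g/kg, and without the TALL3 control 11, 8 and 4. On 0.4 g/kg the count was also 6 without the TALL3 library of that diet, and on 0.8 g/kg it was 5 without the TALL2 library of that diet. The 3 comparisons share both control libraries. The mouse diet values that follow did not pass the test.

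Slc7a3 (ENSMUSG00000031297, chromosome X, 101079210 to 101086020, minus strand, GRCm38) takes up cationic amino acids. It was at 6.02 and 8.07 FPKM on 0 g/kg in TALL2 and TALL3, 2.58 and 0.865 on 0.4 g/kg, 0.200 and 2.39 on 0.8 g/kg, and 0.0169 and 0.0444 FPKM on 8 g/kg. All 6 libraries of restricted diets lay above both controls, where 1 and 2 reads were recovered, against 316 and 317 reads on 0 g/kg. The log2 fold change on log2(FPKM + 1) was 2.95 on 0 g/kg (SE 0.543, limma adjusted p = 0.23), 1.33 on 0.4 g/kg and 0.97 on 0.8 g/kg.

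Slc6a9 (GlyT1, ENSMUSG00000028542, chromosome 4, 117834506 to 117875198, plus strand), which takes up glycine, was at 11.8 and 8.09 FPKM on 0 g/kg, 7.99 and 2.29 on 0.4 g/kg, 1.98 and 5.66 on 0.8 g/kg, and 1.69 and 1.60 FPKM on 8 g/kg, in TALL2 and TALL3. Again all 6 restricted libraries were above both controls, but within 0.4 and 0.8 g/kg the 2 libraries lay far apart and in opposite order. The difference on 0 g/kg was 2.03 (SE 0.561, limma adjusted p = 0.38). Asparagine synthetase, Asns, a gene known to be induced when amino acids run short, was at 69.2 and 84.6 FPKM on 0 g/kg, 47.3 and 17.1 on 0.4 g/kg, 5.58 and 47.5 on 0.8 g/kg, and 2.02 and 2.90 FPKM on 8 g/kg. The libraries high in Asns were those high in both carriers. Ranked by Slc7a3, the 8 libraries stood in the order given by Asns except that TALL2 on 0.4 g/kg and TALL3 on 0.8 g/kg changed places. Ranked by Slc6a9, these 2 changed places and so did both libraries within 0 and within 8 g/kg. This is a description of 8 libraries, chosen for naming after its values were seen.

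**Figure D3:**
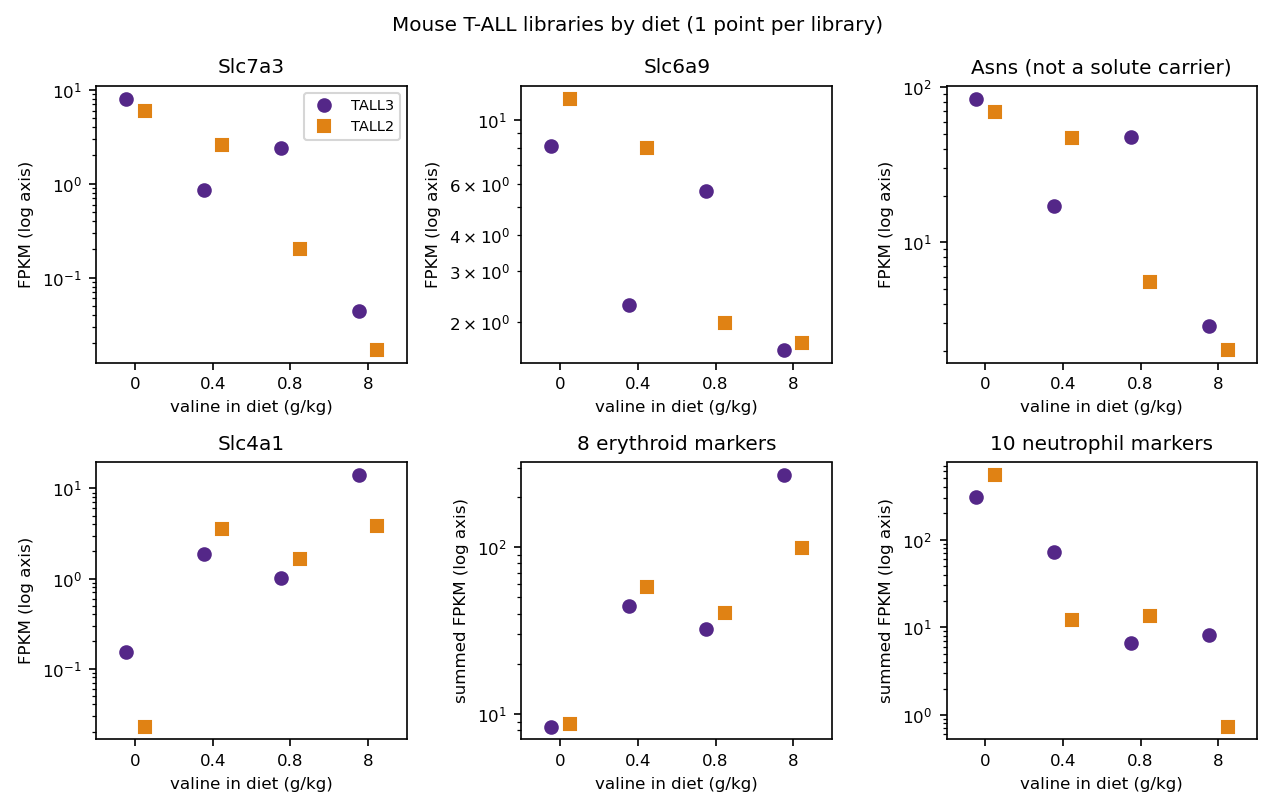
Levels of Slc7a3, Slc6a9, Asns and Slc4a1 (FPKM, log axes) and summed erythroid and neutrophil markers (FPKM, log axes) against valine in the diet, 1 point per library. Slc7a3, Slc6a9 and Asns are high in TALL3 on 0.8 g/kg and TALL2 on 0.4 g/kg and lower in the partner library of the same diet. Slc4a1 and the sum of the erythroid markers are lowest on 0 g/kg.

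Promoter sequence was searched for the letters TGATGNAAN, a core shared by elements through which amino acid shortage acts on genes such as Asns, on both strands of the 250 bases before each start in RefSeq (GRCm38.p6). Of 155 mouse members 117 were matched by symbol, with 160 starts, and 4 of these (2.5%) held the letters, against 3.44% of 32851 promoters of all genes. The starts with a match belonged to Slc50a1, Slc7a7 and Slc9a9, and none of the 3 starts of Slc6a9 held it. No promoter of Slc7a3 was used here. Below are the upstream bases of the first of the 3 Slc6a9 starts (chr4:117835008-117835257, plus strand), shown because Slc6a9 had the second largest positive difference, and of Slc50a1 (chr3:89270571-89270820, minus strand), shown because it holds the letters and its 0 and 8 g/kg libraries did not overlap. Capitals mark the match, which runs from -189 to -181 relative to the start of Slc50a1. Slc9a9, with a match from -69 to -61 and no overlap between the same 2 diets, is not shown.
Slc6a9: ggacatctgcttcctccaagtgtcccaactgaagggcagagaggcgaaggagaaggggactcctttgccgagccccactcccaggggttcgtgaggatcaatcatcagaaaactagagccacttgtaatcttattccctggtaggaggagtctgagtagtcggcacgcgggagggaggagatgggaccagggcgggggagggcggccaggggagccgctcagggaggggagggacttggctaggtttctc
Slc50a1: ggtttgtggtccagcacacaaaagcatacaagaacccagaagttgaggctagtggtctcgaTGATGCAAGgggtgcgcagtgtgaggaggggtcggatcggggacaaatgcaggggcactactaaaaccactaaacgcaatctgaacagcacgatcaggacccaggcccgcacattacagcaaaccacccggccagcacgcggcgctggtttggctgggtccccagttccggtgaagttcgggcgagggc
A match here is a string of letters and not a measured binding site.

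Slc50a1 was at 22.1 and 22.6 FPKM on 0 g/kg, 16 and 17.9 on 0.4 g/kg, 19.6 and 16.4 on 0.8 g/kg, and 17.5 and 16.1 FPKM on 8 g/kg, in TALL2 and TALL3. It was highest in both valine-free libraries and overlapped with the control in both intermediate diets (0.39 on 0 g/kg, SE 0.117, limma adjusted p = 0.41).

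Slc4a1 (ENSMUSG00000006574, chromosome 11, 102348824 to 102366203, minus strand) exchanges chloride and bicarbonate across the red-cell membrane. It was at 0.0228 and 0.152 FPKM on 0 g/kg, 3.55 and 1.88 on 0.4 g/kg, 1.63 and 1.02 on 0.8 g/kg, and 3.87 and 14.1 FPKM on 8 g/kg, in TALL2 and TALL3. All restricted libraries lay below both controls, and the order of the diets was that of the summed erythroid markers given above. The difference was -2.98 on 0 g/kg (SE 0.538, limma adjusted p = 0.23), with 2 and 10 reads recovered there, against 383 and 1059 on 8 g/kg. In sorted bulk cells, fewer red-cell precursors and less RNA per cell cannot be told apart.

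The 35 SLC25 genes had a median of -0.04 on 0 g/kg, -0.12 on 0.4 g/kg and -0.14 on 0.8 g/kg, against -0.01, -0.05 and -0.04 for all genes. These medians moved with single libraries: without the TALL2 control they were 0.02, -0.06 and -0.06, without the TALL3 control that on 0.4 g/kg was -0.19, and that on 0 g/kg was -0.11 without the TALL2 and -0.02 without the TALL3 library of that diet. All 6 restricted libraries lay below both controls for 7 of 35 (20%) and above them for 2 (5.71%), against 11.4% and 4.73% of all genes. Slc25a5 (chromosome X, 36795651 to 36798807, plus strand), an ADP/ATP carrier, was at 119 and 111 FPKM on 0 g/kg, 113 and 124 on 0.4 g/kg, 115 and 121 on 0.8 g/kg, and 143 and 140 FPKM on 8 g/kg, in TALL2 and TALL3. All 6 restricted libraries were thus below both controls, and the difference was -0.30 on 0 g/kg (SE 0.0846), -0.26 on 0.4 g/kg and -0.26 on 0.8 g/kg, with limma adjusted p from 0.39 to 0.998. Slc25a4, the other ADP/ATP carrier, was at 130 and 103 FPKM on 0 g/kg, 105 and 99.3 on 0.4 g/kg, 104 and 112 on 0.8 g/kg, and 119 and 122 FPKM on 8 g/kg. It overlapped with the control on 0 g/kg and was lower in both libraries of 0.4 g/kg (-0.23) and of 0.8 g/kg (-0.15), with limma adjusted p of 0.56 and 0.998.

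Slc25a46 was at 16.8 and 19.6 FPKM on 0 g/kg, against 22.8 and 22.9 FPKM on 8 g/kg (-0.32, SE 0.10, limma adjusted p = 0.41). The aspartate/glutamate carrier Slc25a12 was at 15.5 and 15.3 FPKM on 0 g/kg, against 19.1 and 17.8 FPKM on 8 g/kg. With Slc25a16, the peroxisomal carrier Slc25a17, Slc25a47 and the NAD carrier Slc25a51, these were the genes below the controls in every restricted library. The gene above the controls in every restricted library and with the smallest p of SLC25 was Slc25a11 (chromosome 11, 70644196 to 70647479, minus strand), the oxoglutarate/malate carrier of the malate-aspartate shuttle. It was at 59.3 and 57.7 FPKM on 0 g/kg, 51.8 and 54.1 on 0.4 g/kg, 50.9 and 52.2 on 0.8 g/kg, and 44.7 and 48.8 FPKM on 8 g/kg. It was highest without valine and lowest in the controls, and the intermediate diets overlapped with each other (0.32 on 0 g/kg, SE 0.0792, limma adjusted p = 0.37). Slc25a35 was the other gene above both controls throughout. Slc25a39 was at 78.9 and 80.9 FPKM on 0 g/kg, against 57.9 and 66.1 FPKM on 8 g/kg (0.36, limma adjusted p = 0.42), and the ATP-Mg/phosphate carrier Slc25a25 at 20.2 and 15.9 FPKM, against 12.2 and 10.9 FPKM (0.60, limma adjusted p = 0.44). Both overlapped with the control in the intermediate diets. Of 18 tested mitochondrial transport genes without an SLC symbol limma called 0 on 0 g/kg, with 1 at an unadjusted p under 0.05 and a median of -0.05.

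**Figure D4:**
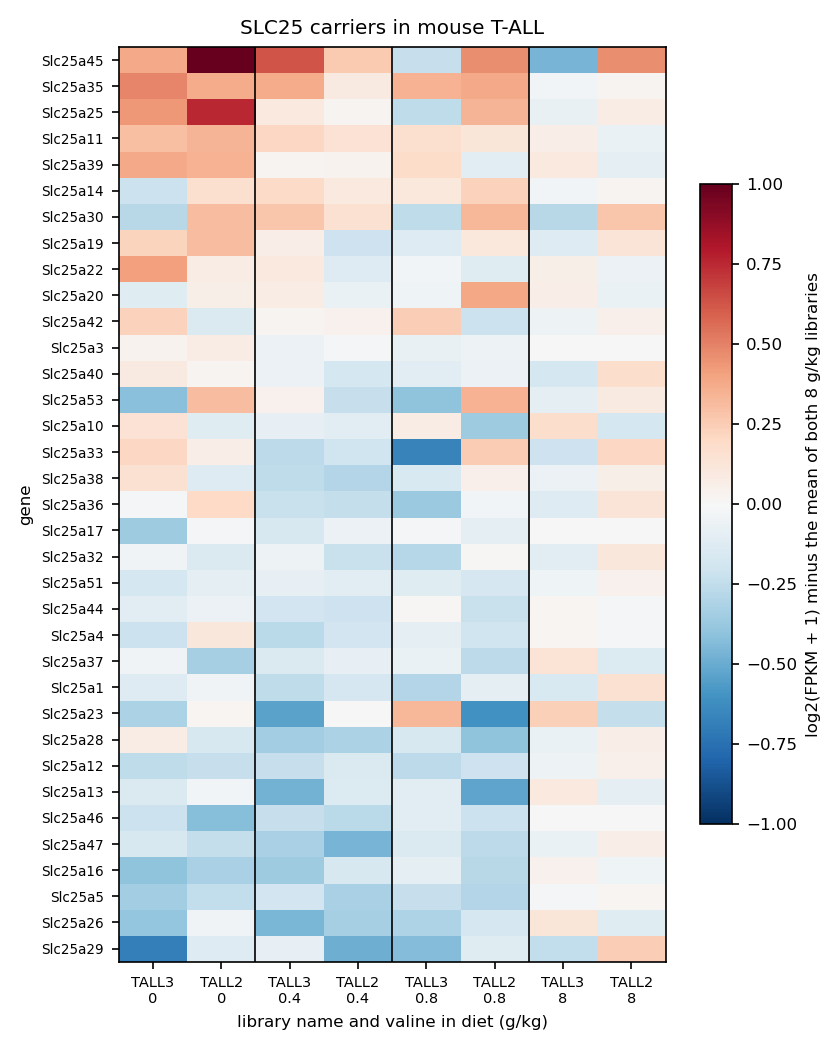
Difference of each library from the mean of both 8 g/kg libraries on log2(FPKM + 1) for the 35 mouse SLC25 genes, 1 column per library, in order of their mean over the restricted diets; colours end at -1 and 1. Most cells are pale, Slc25a11 and Slc25a35 are above the controls in all 6 restricted libraries, and Slc25a5, Slc25a46, Slc25a16 and Slc25a12 are below.

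Among the 120 other members 12 lay below both controls in all 6 restricted libraries (10%, against 11.4% of all genes) and 5 lay above (4.17%, against 4.73%), which is near the share among all genes. They are named as values. The zinc importer Slc39a1 was at 9.30 and 9.95 FPKM on 0 g/kg, 10.2 and 10.3 on 0.4 g/kg, 9.66 and 11.8 on 0.8 g/kg, and 13 and 15.1 FPKM on 8 g/kg, in TALL2 and TALL3 (-0.50 on 0 g/kg, SE 0.128, limma adjusted p = 0.37). The nucleoside carrier Slc29a3 was at 8.90 and 9.03 FPKM on 0 g/kg, 8.21 and 8.38 on 0.4 g/kg, 9.36 and 10.4 on 0.8 g/kg, and 11.6 and 12.1 FPKM on 8 g/kg. Both were highest in the controls. The urate carrier Slc2a9 was lowest on 0.4 g/kg, at 7.79 and 6.62 FPKM, against 13.8 and 14.8 FPKM on 8 g/kg (-0.91, SE 0.12, limma adjusted p = 0.39), as was Slc35g1, at 14.7 and 11.8 FPKM, against 22.5 and 20.2 FPKM (-0.65, SE 0.122, limma adjusted p = 0.39). The taurine carrier Slc6a6, the copper importer Slc31a1 and the carnitine carrier Slc22a5 were also below the controls throughout, as were Slc4a1, Slc17a5, Slc35f2, Slc37a4 and Slc44a1. Besides Slc7a3 and Slc6a9, those above throughout were the aromatic amino acid carrier Slc16a10, the UDP-galactose carrier Slc35a2 and Slc38a10. Slc16a10 was at 41.7 and 30.4 FPKM on 0 g/kg, 39.1 and 30.4 on 0.4 g/kg, 34.8 and 34.3 on 0.8 g/kg, and 28.9 and 26.8 FPKM on 8 g/kg.

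Over the 4 diets ranked by falling valine, limma called 0 members, as 0% of all genes, with 23 (14.8%, against 12.3% of all genes) at an unadjusted p under 0.05. Limma-voom gave 0 calls and 22 at that limit, and without the TALL3 control limma had 13 (8.39%, against 7.61% of all genes). Slc7a3 had the smallest p, with a slope of 0.92 per step of the rank on log2(FPKM + 1) (SE 0.169, limma adjusted p = 0.18). Slc6a9 had 0.64 per step and Slc25a11 0.10 per step, while Slc4a1 had -0.83, Slc39a1 -0.16 and Slc25a46 -0.10 per step. The 9 carriers left out, most of them amino acid carriers, had a median of 0.44 on 0 g/kg, against 0.07 for the 120 other members. Of the 9, 5 were at an unadjusted p under 0.05, against 10.3% of all genes. How the median of the 9 moved with single libraries was not tested. Without the TALL3 library of 0 g/kg the median of those 120 was -0.03, without the TALL2 library of that diet 0.12, and without the TALL3 control 0.03.

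Of the 69 members that passed 1 FPKM in both tables, 35 were called with gSI (50.7%, against 52.3% of 4952 symbols tested in both). For 25 of these members the libraries at 0 and 8 g/kg did not overlap (36.2%, against 42% of all mouse genes and 44.6% of those symbols). Of the 155 mouse members as a whole 31 were higher (20%, against 19.1% of all genes) and 29 lower (18.7%, against 22.9%) with no overlap between these diets. A call with gSI and no overlap in mouse held together for 12 of the 69 (17.4%). Of the 4952 symbols tested in both tables it held for 1166 (23.5%), so the 69 members were not above that share. The direction was the same for 7, which were SLC25A5, SLC4A7 and SLC37A4 (lower in both) and SLC25A39, SLC26A6, SLC35A2 and SLC38A10 (higher in both). It was opposite for SLC25A44, SLC26A2, SLC35B2, SLC35F6 and SLC50A1. How many of the 1166 symbols had the same direction was not counted, so these 7 cannot be set against a share of all genes. As given above, SLC38A10 was a human member only through its gSI libraries. Slc25a44, which rose with gSI in human cells, was at 15 and 14.4 FPKM on 0 g/kg, 13.4 and 13.6 on 0.4 g/kg, 13.3 and 15.8 on 0.8 g/kg, and 15.5 and 15.9 FPKM on 8 g/kg. Its valine-free libraries were just below the controls (-0.09, SE 0.104, limma adjusted p = 0.80).

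The last comparison set TALL3 against TALL2 libraries over the 4 diets, with diet in the fit. No carrier passed the test with all libraries, and 7 carriers of sugars, fatty acids, amino acids, ions and other solutes passed it without the 0.4 g/kg libraries. Leaving these libraries out was chosen after they were seen to stand apart in this same comparison. The calls and adjusted p-values without them are therefore descriptive. With all 8 libraries limma called 0 of 155 members and 1 of 9943 genes (0.0101%), with 24 members (15.5%, against 14.7% of all genes) at an unadjusted p under 0.05. Limma-voom gave 0 member calls and 22 at that limit. The 24 became 8 without the TALL2 control (5.16%, against 7.33% of all genes) and 9 without the TALL3 control (against 7.39%) or without either 0 g/kg library (against 8.15%). Without both 0.4 g/kg libraries 7 members were called (4.52%, against 2.96% of all genes), with 3 higher (1.77% of all genes) and 4 lower (1.19% of all genes) in TALL3. Without either one of the 0.4 g/kg libraries the number was also 7, since the lone library of a diet then adds nothing to the contrast.

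Slc35d1, a nucleotide sugar carrier of the endoplasmic reticulum, was at 9.65, 11.3, 14.6 and 11.6 FPKM in TALL3 and at 5.12, 7.37, 7.69 and 6.87 FPKM in TALL2, at 0, 0.4, 0.8 and 8 g/kg. TALL3 was higher in every diet and the libraries did not overlap (0.72, SE 0.0820, limma adjusted p = 0.086; 0.77 and adjusted p = 0.029 without the 0.4 g/kg libraries). The glucose carrier Slc2a3 was at 15.1, 12.2, 11.3 and 13.6 FPKM in TALL3 and at 25.7, 16.5, 16.7 and 22.1 FPKM in TALL2, lower in TALL3 in every diet (-0.58, SE 0.0781, limma adjusted p = 0.12; -0.64 and adjusted p = 0.036 without the 0.4 g/kg libraries). The fatty acid carrier Slc27a1 was at 8.62, 9.70, 8.36 and 8.85 FPKM in TALL3 and at 16.3, 10.6, 12.7 and 14 FPKM in TALL2 (-0.53, limma adjusted p = 0.21; -0.66 and adjusted p = 0.049 without the 0.4 g/kg libraries). These 3 genes kept their direction in each diet, 0.4 g/kg included. So did Slc45a3, a sugar carrier, at 0.870, 2.09, 1.39 and 1.16 FPKM in TALL3 and at 9.55, 5.77, 3.36 and 3.05 FPKM in TALL2 (-1.35, limma adjusted p = 0.19), and the dicarboxylate carrier Slc25a10, at 18.7, 15.9, 17.8 and 19.2 FPKM in TALL3 and at 15.4, 15.5, 12.9 and 14.8 FPKM in TALL2 (0.27).

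The amino acid carrier Slc36a4 did not: it was at 7.42, 0.324, 7.55 and 8.67 FPKM in TALL3 and at 1.95, 4.32, 2.35 and 2.73 FPKM in TALL2, at 0, 0.4, 0.8 and 8 g/kg. Its level on 0.4 g/kg was lower in TALL3, and the difference was 0.56 with all libraries and 1.41 (limma adjusted p = 0.016) without those of 0.4 g/kg. Slc22a3, an organic cation carrier, was at 17.8, 34.6, 21 and 18.7 FPKM in TALL3 and at 41.9, 36.8, 46.5 and 31.4 FPKM in TALL2, so that TALL3 came close to TALL2 on 0.4 g/kg only (-1.0 without those libraries, limma adjusted p = 0.028). The other 2 genes called without the 0.4 g/kg libraries were the sodium-potassium-chloride cotransporter Slc12a2 (1.19, limma adjusted p = 0.046) and Slc25a45 (-0.79, limma adjusted p = 0.046), the SLC25 gene with the widest range. Slc25a45 was at 5.11, 6.28, 3.01 and 2.42 FPKM in TALL3 and at 9.18, 4.64, 5.49 and 5.49 FPKM in TALL2, with the order turned on 0.4 g/kg.

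**Figure D5:**
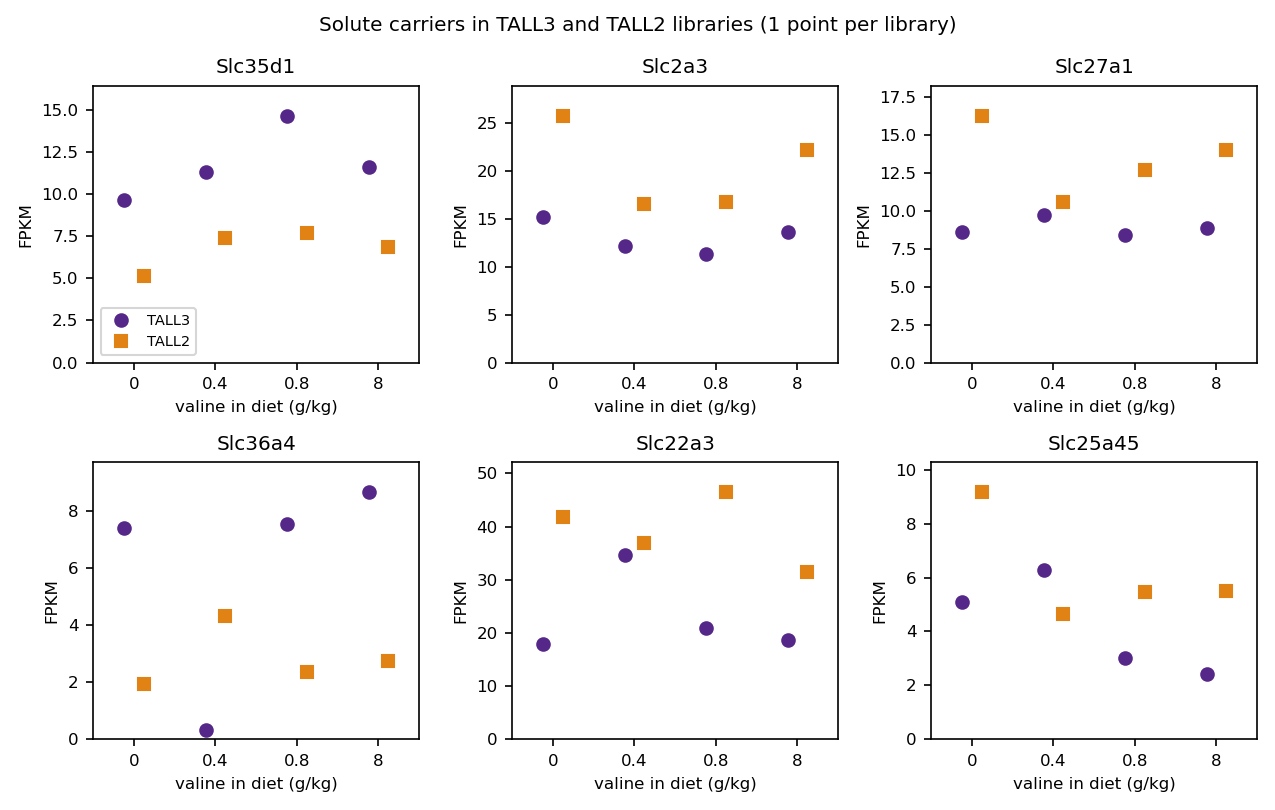
FPKM of 6 carriers against valine in the diet, 1 point per library, TALL3 left of TALL2 in each diet. Slc35d1 is higher and Slc2a3 and Slc27a1 are lower in TALL3 in every diet, whereas Slc36a4 and Slc25a45 turn their order on 0.4 g/kg, where Slc22a3 is at 34.6 FPKM in TALL3, against 36.8 FPKM in TALL2.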

How the data were processed

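The data were RNA sequencing libraries, 12 in all and 2 per group. Per species 1 table of FPKM was deposited, and every sample column in it was used. STAR, edgeR, hg19 and mm10 are named in the submitters' processing notes; which gene model and counter were used is not given in the sources used here. Members and gene lists were chosen with earlier results of these data known. Genes with a table mean of at least 1 FPKM (6679 human, 9943 mouse) were tested two-sided with limma 3.58.1 (R 4.3.3), with a variance trend, after adding a pseudocount of 1 and taking log2. P-values were Benjamini-Hochberg adjusted over every tested gene of a table, with a threshold of 0.05, and all 4 diets shared 1 fit. Genes were named per comparison and class: the largest called changes (at most 5 per direction), filled to 3 by smallest p, plus a fixed list of members; other names were chosen after their values were seen. Reads were recovered as the smallest whole numbers in the ratios of a gene's FPKM between libraries, and they serve for depth and limma-voom. With these reads 95.7% of human genes and 99.9% of mouse genes had a whole-number length (tolerance 0.01 bp), and for the rest the reads were multiplied until they did. Libraries of a group differed beyond counting noise (chi-square per degree of freedom 8.13 to 96.8). Simulating 0 against 8 g/kg with 9922 genes, the test found 14.9% of 1.5-fold and 80.3% of 4-fold changes. The simulation held 104 called genes, which eases the adjusted threshold, whereas the data had 0 of 9943. Even Asns, at 69.2 and 84.6 FPKM on 0 g/kg, against 2.02 and 2.90 FPKM on 8 g/kg, was not called. These rates are therefore not the power of the test in the data. Mouse coordinates come from GENCODE M21 on GRCm38 (155 of 155 members matched).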

Additional observations from a re-analysis of the deposited data

How the results depend on the processing

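The 38 members called with gSI were 35 to 44 under other pseudocounts, no filter, 2 other scalings, no variance trend and voom, and 30 to 39 when each library was left out (SLC25 5 to 7, other members 23 to 33), which is 40% to 52% of members against 33.3% to 52.9% of all genes. Raising the filter to a mean of 5 FPKM left 17 members in the test, of which 6 were called (35.3%, against 55.5% of all genes), 2 of them SLC25 and 4 others. The diet and slope counts were 0 under each alternative run. For TALL3 against TALL2 the count was 0 to 7 over the fits that left out 1 library (SLC25 0 to 1, other members 0 to 6), and 7 without both 0.4 g/kg libraries (SLC25 1, others 6), an alternative chosen after seeing the data, as was voom. When single libraries were left out, Slc25a20 on 0.8 g/kg lay between -0.046 (without the TALL2 library of that diet) and 0.39, and Slc25a45 on 0.4 g/kg between -0.020 (without the TALL3 control) and 0.91; the cause was not tested. With the replicate number as a block, 41 members were called with gSI and 0 for each diet. On 0 g/kg the blocked fit had 26 members at an unadjusted p under 0.05 (16.8%, against 12.4% of all genes). Same-numbered deviations correlated across genes at 0.26 in human. Between mouse diets they correlated at 0.74 (0.8 and 8 g/kg), 0.57 (0 and 8 g/kg) and 0.36 (0 and 0.8 g/kg). With 0.4 g/kg the values were 0.43 (0 g/kg), 0.059 (8 g/kg) and -0.17 (0.8 g/kg). The numbers were not taken to pair samples, although the 0, 0.8 and 8 g/kg diets shared a pattern.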
